A study of Homo sapiens with 47 samples.

Results

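The 49 genes described here encode the DNA replication machinery and other proteins of S phase. They were taken from a list of gene names, but that list was chosen with earlier results of these data known. All 49 were found by their Ensembl identifiers among the 25739 genes of the table. LM2 (MDA-MB-231-LM2) is a metastatic subline of the human triple-negative breast cancer (TNBC) line MDA-MB-231, labeled with GFP. The circulating tumor cells (CTC) came from blood of NSG mice, an immunodeficient strain, that were 6 to 8 weeks old when LM2 cells were placed in the mammary fat pad. CTCs were enriched by size, stained for the leukocyte protein CD45 as a negative marker and picked singly for GFP with an aspirating needle, and the comparison cells were LM2 cells of the same line grown in culture. Each picked cell gave 1 SMARTseq2 library, and the labels do not tell batches of libraries apart. The values cover 37 CTCs, with 2 from mouse 5541, 4 from mouse 5542, 10 from mouse 5545, 17 from mouse 5546 and 4 from mouse 5549, and 6 cultured cells. All cells derive from 1 line. Replicates of the CTCs are the mice. The labels do not say whether the 6 cultured cells came from 1 culture or several, and they were counted as 1 sample.

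Replication starts at origins, where CDC6 and CDT1 load the MCM helicase onto DNA in G1 phase. CDC45 and the GINS complex then activate the helicase, polymerase alpha with primase starts each strand, and the polymerases delta and epsilon extend it with the sliding clamp PCNA. Many of these genes are transcribed together by E2F factors as cells pass from G1 to S phase, and are little expressed in cells that have left the cell cycle.

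A normalized count is a gene's read number scaled by a size factor, which is specific to each cell. Reads on genes ranged from 469614 to 2041333 per CTC and from 776949 to 1186197 per cultured cell. Sums of normalized counts were lower in CTCs, at 442223 to 1169174, than in cultured cells, at 1161997 to 1783225, with 2 CTCs inside the range of the culture, and the median gene was lower in CTCs on this scale. VIM and LGALS1, markers of mesenchymal tumor cells, were detected in all 37 CTCs. The erythroid transcripts HBB, HBA2 and ALAS2 were above the culture mean in all 5 mice and at 0 in all 6 cultured cells. The sum of the 5 erythroid markers listed in the table ranged from 0 to 12522 per CTC, that of the 8 leukocyte markers from 0 to 1069, against 0 to 53.7 in culture, and PTPRC, which encodes CD45, was detected in 11 CTCs. Neutrophil markers summed to 0 in culture and to 0 to 574 in CTCs. The mitochondrial share was 4.05 to 5.74% in cultured cells and 4.28 to 23.9% in CTCs, and all 5 mouse means, 6.15 to 10.7%, were above the highest cultured cell. The part of these transcripts, or of the mitochondrial share, in the results below was not tested beyond the correlations given. CTCs 5549-6, 5546-s9, 5546-s7 and 5545-6 were among the 5 CTCs with the lowest median correlation with the other CTCs (Spearman's ρ = 0.28 to 0.40, over the genes compared below).

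Replication genes were lower in CTCs than in cultured LM2 cells, and they varied widely among CTCs. A replication score was calculated for each cell as the mean of log2(normalized count + 1) over the 49 genes. It was 6.20 ± 0.78 (SD over 6 cells) in culture and 2.57 ± 1.09 (SD, n = 5 mouse means) in CTCs, a difference of 3.63 on the log2 scale. Cultured cells ranged from 4.79 to 7.10, with a median of 6.33. CTCs ranged from 0.41 in CTC 5542-4 to 5.65 in CTC 5545-1, with a median of 2.92, and CTC 5545-1 was the only 1 of 37 CTCs to reach the range of the culture. The mouse means were 0.69 for mouse 5541, 2.73 for mouse 5542, 3.19 for mouse 5545, 2.80 for mouse 5546 and 3.45 for mouse 5549.

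The position of single CTCs against the culture depended on the scale. After the mean log2 level of all 9164 genes compared was subtracted in each cell, the score was -0.51 ± 1.15 (SD, n = 5 mouse means) in CTCs and 1.24 ± 0.67 (SD over 6 cells) in culture, and 10 of 37 CTCs were at or above the lowest cultured cell, at 0.60. The share of a cell's reads that lay in the 49 genes, which needs no size factor, was 0.265% ± 0.160 (SD, n = 5 mouse means) in CTCs and 0.635% ± 0.245 (SD over 6 cells) in culture. This share ran from 0.00958% in CTC 5542-4 to 0.712% in CTC 5549-2 and from 0.264% to 0.974% in culture, and 15 CTCs were at or above the lowest cultured cell. The cultured cells also differed among themselves, since LM-2 had the lowest score and the lowest share of the 6.

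**Figure D1:**
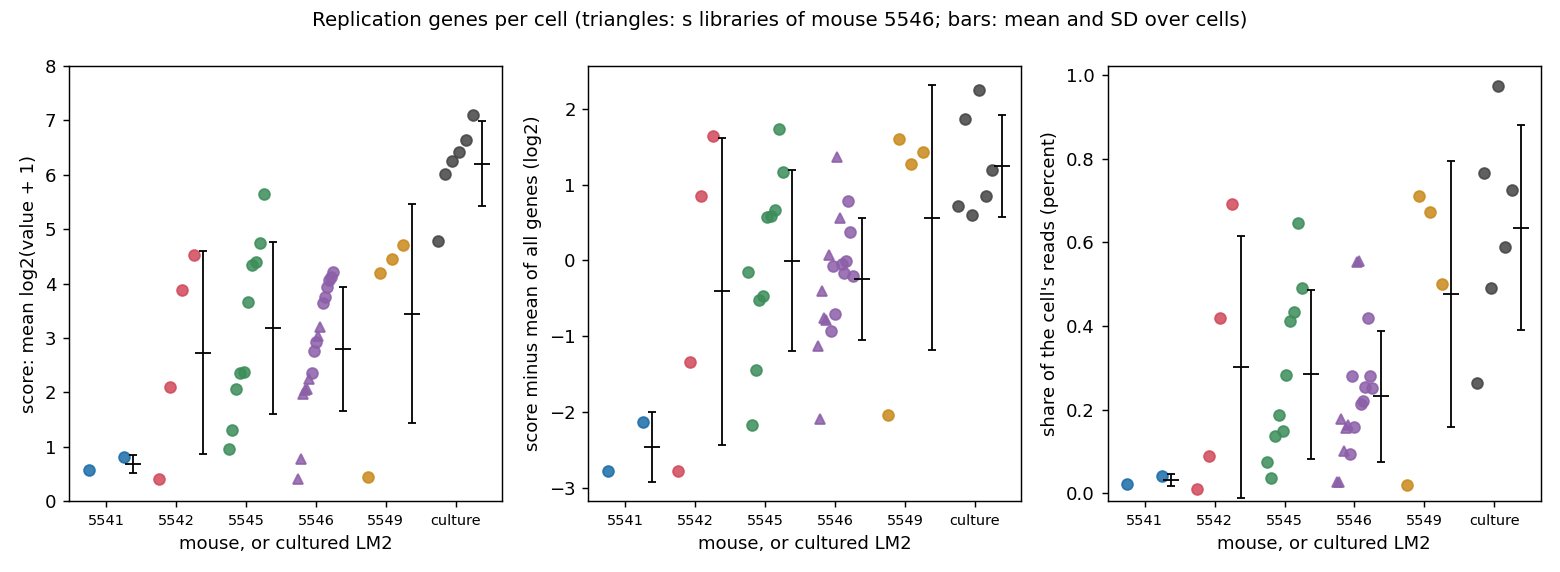
Replication genes in each cell by mouse and in culture, as the replication score (left), the score minus the mean of all compared genes of the cell (middle) and the share of the reads of the cell in percent (right). Each point is 1 cell, triangles are the s libraries of mouse 5546, and bars give mean and SD over the cells of a group; both CTCs of mouse 5541 and CTCs 5542-4 and 5549-6 are low in all 3 panels.

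With mice as replicates and the culture as 1 sample, genes were compared one at a time by a rule of size, with no p-value. To meet it, the CTC mean in each of the 5 mice had to differ from the culture mean by at least 2-fold in the same direction, with 1 added to every mean (also in the folds of means below), and 1 of the groups had to have a mean of at least 8. Of the 48 replication genes that reached this level, 30 met the rule as lower and 0 as higher. Among all 9164 genes that reached it, 2298 (25.1%) met it as lower and 24 (0.262%) as higher. POLA2 was too low to be compared. All 5 mouse means were below the culture mean for 44 of the 48 genes, against 60.3% of all genes.

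The mean log2 ratio over mice had a median of -3.05 over the replication genes and of -1.56 over all genes, so the replication genes were lower by 1.49 relative to the typical gene. Mouse 5541 had a mean of 0 for 37 of the 49 genes, where the ratio depends on the 1 added, and with such means set to the value of 3 reads the medians were -3.12 and -1.69. The gap to all genes was -4.39 in mouse 5541, -0.99 in mouse 5542, -0.85 in mouse 5545, -1.11 in mouse 5546 and -0.11 in mouse 5549. Without mouse 5541 the gap went from -1.49 to -0.69. The number of genes that met the rule was 30 with or without this mouse. The share of all genes went from 25.1% to 29.9% without it, since fewer mice then had to agree. Without the 4 CTCs of low correlation 26 replication genes met the rule, against 24.7% of all genes. On CPM values, which scale each cell to the same read total, computed without the mitochondrial genes, the median of all genes was -0.75 and that of the replication genes -2.29, and 10 replication genes met the rule as lower, against 7.92% of all genes. These 10 were MCM2, GINS3, RFC3, RFC4, DSCC1, FEN1, RRM1, RRM2, CCNE2 and EXO1. On that scale the mean log2 ratio was below 0 for 48 of the 49 genes. With a median of -0.75, it was also below 0 for most of all genes compared.

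**Figure D2:**
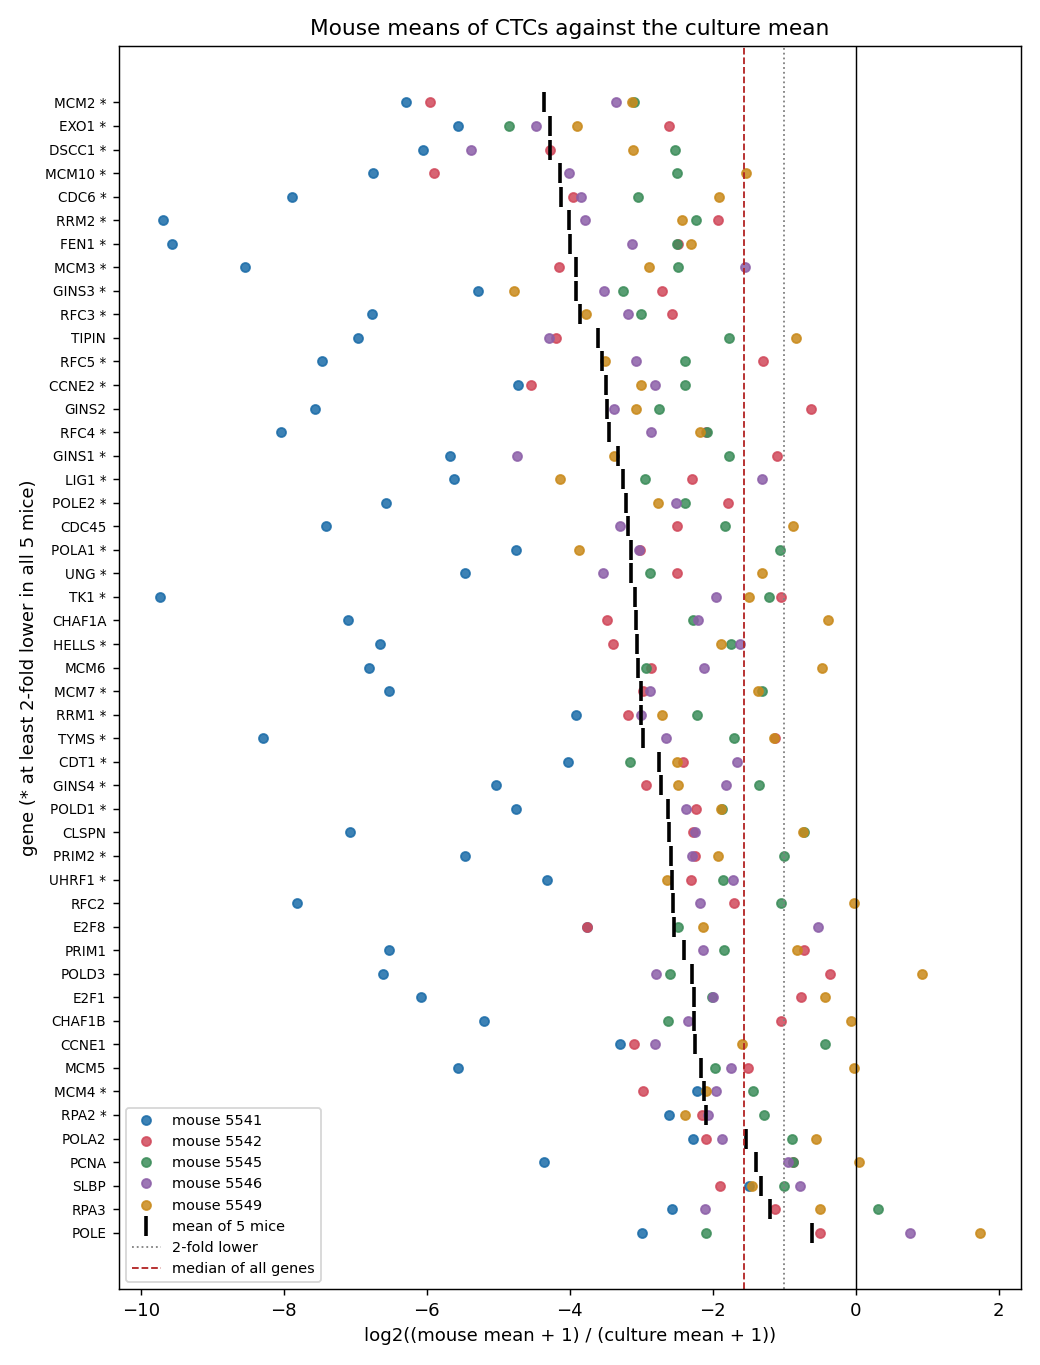
Log2 ratio of CTC mean to culture mean by mouse, each mean with 1 added, for each gene (rows, ordered by the mean over mice, black bars). Stars mark the 30 genes at least 2-fold lower in all 5 mice, the dotted line marks 2-fold lower and the dashed line the median of all 9164 genes, -1.56; mouse 5541 gives the lowest point for most genes.

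No replication gene was called when reads were summed within each mouse and within the culture and tested. The quasi-likelihood test of edgeR with Benjamini-Hochberg adjustment called 0 of 12288 genes (0%), all 49 replication genes included, and 205 genes but 0 replication genes had an unadjusted p below 0.05. The smallest unadjusted p among them was 0.0937, for RRM1, with an adjusted p of 1.00, a log2 fold change of -1.45 and 5 of 5 mouse means below the culture. DESeq2 on the same sums called some other genes, but none of the 46 replication genes that had an adjusted p. Its median log2 fold change was -0.99 over the replication genes against 0.23 over all genes. For limma the input was instead log2(mean normalized count + 1) per mouse and in the culture, and it also called no replication gene. On that scale the medians were -3.04 and -1.29. In the edgeR fit the log2 fold change was below 0 for 41 of the 49 genes, with a median of -0.96 against 0.24 over all genes. The fit has 1 culture sum, which is assumed to vary as the mice do.

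Since many of these genes are known targets of E2F, the 250 bases before the first start site that RefSeq lists for each gene (GRCh38.p14) were searched for the E2F words TTTGGCGC, TTTCCCGC, TTTCGCGC and TTTGCCGC on both strands, where words may overlap. A promoter was matched for 40 of the 49 genes. At least 1 word was found in 15 of these 40 promoters (37.5%), against 761 of 27305 promoters of all genes (2.79%) and 1 of 24 promoters of the G2 and mitosis genes used below (4.17%). The word TTTGAA, part of an element known from promoters of mitotic genes, was found in 1 of the 40 (2.50%), in 13 of the 24 (54.2%) and in 13.6% of all promoters. CCAAT was found in 52.5%, 75.0% and 33.0%, and GGGCGG in 75.0%, 75.0% and 42.3%. The 4 genes with the highest mean over all cells among those with an E2F word are shown, with the word in capitals, each 5′ to 3′ on the strand of the gene and ending at the base before the start site. They lie at chr20:5126623-5126872 (minus strand, PCNA), chr7:100101398-100101647 (minus strand, MCM7), chr6:52284743-52284992 (minus strand, MCM3) and chr18:657403-657652 (plus strand, TYMS).
PCNA: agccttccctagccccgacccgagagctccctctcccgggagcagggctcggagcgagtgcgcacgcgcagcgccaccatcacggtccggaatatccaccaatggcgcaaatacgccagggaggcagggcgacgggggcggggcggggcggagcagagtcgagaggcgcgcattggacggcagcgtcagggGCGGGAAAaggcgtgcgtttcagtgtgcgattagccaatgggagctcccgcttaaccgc
MCM7: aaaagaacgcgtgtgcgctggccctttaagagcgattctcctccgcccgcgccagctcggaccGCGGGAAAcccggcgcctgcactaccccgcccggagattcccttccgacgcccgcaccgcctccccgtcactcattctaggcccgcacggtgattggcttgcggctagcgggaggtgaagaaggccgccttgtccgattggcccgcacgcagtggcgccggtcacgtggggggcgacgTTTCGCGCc
MCM3: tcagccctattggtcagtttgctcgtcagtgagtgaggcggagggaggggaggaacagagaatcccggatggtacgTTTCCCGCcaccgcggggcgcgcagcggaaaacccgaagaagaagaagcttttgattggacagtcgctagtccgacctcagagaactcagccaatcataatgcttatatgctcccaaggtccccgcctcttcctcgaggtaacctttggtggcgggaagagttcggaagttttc
TYMS: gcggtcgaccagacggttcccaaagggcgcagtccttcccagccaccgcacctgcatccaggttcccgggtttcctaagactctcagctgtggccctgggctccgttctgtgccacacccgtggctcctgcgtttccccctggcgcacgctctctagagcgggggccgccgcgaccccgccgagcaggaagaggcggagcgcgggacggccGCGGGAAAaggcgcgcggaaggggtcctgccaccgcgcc
The middle of the word lies 55 bases before the start in PCNA, 183 and 5 bases before it in MCM7, 170 in MCM3 and 35 in TYMS. MCM6 held 4 words in overlapping pairs, and E2F1 and HELLS held 2 each. TK1, FEN1 and RRM2, which had higher means than TYMS, held none of these words in the 250 bases.

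Gene positions are given for GRCh38 (GENCODE 44). The counts by role below stand against all genes, of which 25.1% met the rule as lower. All 5 mouse means were below the culture for 60.3% of all genes. Among the 8 licensing genes, all had 5 of 5 mouse means below the culture, and CDC6, CDT1, MCM2, MCM3, MCM4 and MCM7 met the rule of size. MCM7 (chr7:100092233-100101940), a helicase subunit and the most abundant of this group, ranged from 281 to 962 normalized counts in culture with a median of 686. In CTCs it ranged from 0 to 829 with a median of 101, and its mouse means were 6.19, 83.9, 268, 89.6 and 256, in the order of the mouse numbers. The mean of these was 141 ± 116 (SD, n = 5), 4.69-fold lower than the culture mean of 665, and 6 of 37 CTCs reached the lowest cultured cell. Groups therefore overlapped for MCM7 in single cells but not in mouse means. MCM3 (chr6:52264014-52284881), another subunit, ranged from 147 to 641 in culture with a median of 309 and from 0 to 507 in CTCs with a median of 43.2. It was at 0 in both CTCs of mouse 5541 and had a mean of 126 in mouse 5546, where 3 s libraries held 371, 381 and 507.

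MCM2 (chr3:127598410-127622436) had the lowest mean log2 ratio of all 49 genes, -4.36 ± 1.61 (SD, n = 5 mice). It ranged from 32.6 to 152 in culture with a median of 64.2, and from 0 to 39.0 in CTCs with a median of 0, and 1 of 37 CTCs reached the lowest cultured cell. The means of MCM2 were 4.59 ± 4.11 (SD, n = 5) and 77.2, a 14.0-fold difference. Of its exon bases, 23.6% are shared with another annotated gene, and counting ignored strand, so reads of the pair cannot be told apart. CDC6 (chr17:40287879-40304657), the loader of the helicase, ranged from 85.3 to 342 in culture with a median of 247 and from 0 to 151 in CTCs with a median of 5.51. Its mean log2 ratio was -4.13 ± 2.25 (SD, n = 5 mice), and -3.19 without mouse 5541, in which it was at 0. MCM5 and MCM6 did not meet the rule, because their means in mouse 5549 were 176 against 180 and 79.9 against 111 in culture. Both means rested on CTC 5549-2, with MCM5 at 502 and MCM6 at 291, while the other 3 CTCs of the mouse held 65.0, 138 and 0 of MCM5 and 13.5, 14.9 and 0 of MCM6.

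The 6 genes of helicase activation were all below the culture in 5 of 5 mice, and MCM10, GINS1, GINS3 and GINS4 met the rule. GINS2 (chr16:85676198-85690073), a subunit of the GINS complex, ranged from 3.76 to 432 in culture with a median of 154. In CTCs GINS2 ranged from 0 to 476 with a median of 4.71, and its highest value, in CTC 5542-8, was above that of every cultured cell. Its mouse means were 0, 121, 27.1, 17.1 and 21.5, and the mean of mouse 5542 was set by CTC 5542-8. CDC45 (chr22:19479457-19520612), which travels with the helicase, ranged from 0 to 478 in culture with a median of 127 and from 0 to 220 in CTCs with a median of 4.20. It was detected in 20 of 37 CTCs and in 5 of 6 cultured cells, with 0 in LM-3. MCM10 (chr10:13161558-13211110), an activator of the helicase, was detected in 14 of 37 CTCs and ranged from 22.6 to 247 in culture, with a mean log2 ratio of -4.14 ± 2.20 (SD, n = 5 mice).

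Among the 8 genes of polymerases and primase, POLA1, PRIM2, POLD1 and POLE2 met the rule as lower, against 25.1% of all genes. POLD3 (chr11:74493851-74669117), a subunit of polymerase delta, ranged from 35.1 to 190 in culture with a median of 76.2 and from 0 to 731 in CTCs with a median of 3.28. Its mean in mouse 5549, 185, was above the culture mean of 97.3, and this mean rested on CTC 5549-2, which held the value of 731. PRIM1 (chr12:56730438-56752374), the catalytic primase subunit, ranged from 8.78 to 167 in culture with a median of 81.0 and from 0 to 148 in CTCs with a median of 7.96. Its mouse means were 0, 54.7, 24.8, 19.9 and 51.3 against 91.3 in culture, so all were lower but those of mice 5542 and 5549 by less than 2-fold. POLE (chr12:132623753-132687376), the catalytic subunit of polymerase epsilon, had the highest mean log2 ratio of the 49, -0.62 ± 1.95 (SD, n = 5 mice). Its means in mice 5546 and 5549, 12.4 and 25.3, were above the culture mean of 6.93, but the latter rested on CTC 5549-2 at 101, with 0 in the other 3 CTCs of that mouse. POLE was detected in 16 of 37 CTCs and 3 of 6 cultured cells, and CTCs 5546-c4 (74.9), 5546-s7 (54.9) and 5546-c5 (36.4) were also above the highest cultured cell, at 17.9. POLA2 (chr11:65261913-65305959), a subunit of polymerase alpha, had a mean log2 ratio of -1.54 ± 0.77 (SD, n = 5 mice) and was detected in 7 CTCs and 3 cultured cells, with at most 10.8 and 17.9 normalized counts. Of the exon bases of POLA2, 21.3% are shared with other annotated genes.

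The group of the clamp, its loader and the lagging strand held genes near to the culture, such as RPA3 and PCNA, and genes far from it, such as DSCC1. Of its 10 genes, RFC3, RFC4, RFC5, DSCC1, FEN1, LIG1 and RPA2 met the rule as lower. PCNA (chr20:5114953-5126626), the sliding clamp, ranged from 38.9 to 784 in culture with a median of 357 and from 0 to 1490 in CTCs with a median of 113. Its mouse means were 18.4, 215, 216, 205 and 410 against 397 in culture, and 25 of 37 CTCs reached the lowest cultured cell. Mouse 5549 was thus level with the culture for PCNA, and the mean log2 ratio was -1.40 ± 1.70 (SD, n = 5 mice), close to the median of all genes. RPA3 (chr7:7636518-7718607), a subunit of the single-strand binding protein RPA, ranged from 10.0 to 252 in culture and from 0 to 553 in CTCs, with medians of 185 and 53.2. Its mean in mouse 5545, 202, was above the culture mean of 162, and its mean log2 ratio was -1.20 ± 1.17 (SD, n = 5 mice). PCNA has 3 and RPA3 has 2 annotated pseudogenes with names of their own, with which uniquely mapped reads can be lost or exchanged.

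FEN1 (chr11:61792911-61797238), the nuclease that trims Okazaki fragments, met the rule, and its mean log2 ratio was -2.61 without mouse 5541, in which it was at 0. It ranged from 290 to 1243 in culture with a median of 702 and from 0 to 577 in CTCs with a median of 62.1, and 3 of 37 CTCs reached the lowest cultured cell. The mouse means of FEN1 were 0, 135, 133, 86.0 and 152, and their mean of 101 ± 61.6 (SD, n = 5) was 7.44-fold lower than the 758 of the culture. DSCC1 (chr8:119833976-119855894), part of an alternative clamp loader, was detected in 12 of 37 CTCs and 5 of 6 cultured cells. The culture ranged from 0 to 150 and CTCs from 0 to 46.7, and the mean log2 ratio of DSCC1 was -4.27 ± 1.48 (SD, n = 5 mice).

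All 4 genes of nucleotide supply met the rule as lower, with a median log2 ratio of -3.05. TK1 (chr17:78174091-78187233), the thymidine kinase of S phase, had the highest mean of the 49 genes in culture, 849. It ranged from 307 to 1243 in culture with a median of 816 and from 0 to 1077 in CTCs with a median of 173, and 16 of 37 CTCs reached the lowest cultured cell. The mouse means of TK1 were 0, 412, 364, 218 and 301. Both CTCs of mouse 5541 were at 0 while the other 4 mice were within 2-fold of each other, and the mean log2 ratio of TK1 was -3.09 with mouse 5541 and -1.43 without it. RRM2 (chr2:10120698-10211725), the small subunit of ribonucleotide reductase, ranged from 0 to 2455 in culture with a median of 541. In CTCs RRM2 ranged from 0 to 532 with a median of 30.9. LM-3 was the only cultured cell with RRM2 at 0, and RRM2 has 3 annotated pseudogenes. RRM1, the large subunit, differed less between mice, with means of 22.9, 38.4, 76.1, 43.9 and 54.0 against 359 in culture, 7.48-fold higher than their mean. TYMS, which makes thymidylate, had mouse means of 0, 142, 95.8, 48.9 and 141 against 313, and 47.9% of its exon bases are shared with ENOSF1 and TYMSOS.

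The cyclin E and E2F genes were low in both groups. E2F1 (chr20:33675477-33686385), an activator of these genes, ranged from 25.1 to 103 in culture with a median of 59.0 and from 0 to 145 in CTCs with a median of 0.816. Its mouse means ran from 0 in mouse 5541 to 49.4 in mouse 5549 against 66.9, all lower, but those of mice 5542 (39.0) and 5549 by less than 2-fold. CCNE2 (chr8:94879770-94896678), a cyclin of the G1 to S transition, was the 1 gene of the 4 to meet the rule. This share is near the 25.1% of all genes. CCNE2 had 8.78 to 43.9 in culture and 0 to 35.0 in CTCs. Its means were 1.85 ± 1.75 (SD, n = 5) and 25.5, and part of its exon bases is shared with INTS8. CCNE1 and E2F8 were detected in 8 and 12 of 37 CTCs.

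Of the 9 genes of chromatin, checkpoint and repair at the fork, UHRF1, HELLS, UNG and EXO1 met the rule, against 25.1% of all genes. SLBP (chr4:1692731-1712344), which binds the stem loop of histone mRNA, was the most widely detected of all 49 genes, in 34 of 37 CTCs (91.9%). It ranged from 61.5 to 511 in culture with a median of 239 and from 0 to 1229 in CTCs with a median of 103. Its mouse means of 92.5, 70.0, 131, 153 and 95.6 were all below the culture mean of 263, by a mean log2 ratio of -1.32 ± 0.44 (SD, n = 5 mice), and SLBP was the only gene with over 80 normalized counts in both CTCs of mouse 5541. CLSPN (chr1:35720218-35769978), a mediator of the replication checkpoint, ranged from 29.3 to 273 in culture with a median of 116 and from 0 to 240 in CTCs with a median of 16.7. EXO1 (chr1:241847967-241895148), an exonuclease of mismatch repair, was detected in 11 of 37 CTCs and 4 of 6 cultured cells. EXO1 reached at most 18.0 in CTCs and 109 in culture, and its mean log2 ratio was -4.28 ± 1.11 (SD, n = 5 mice).

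**Figure D3:**
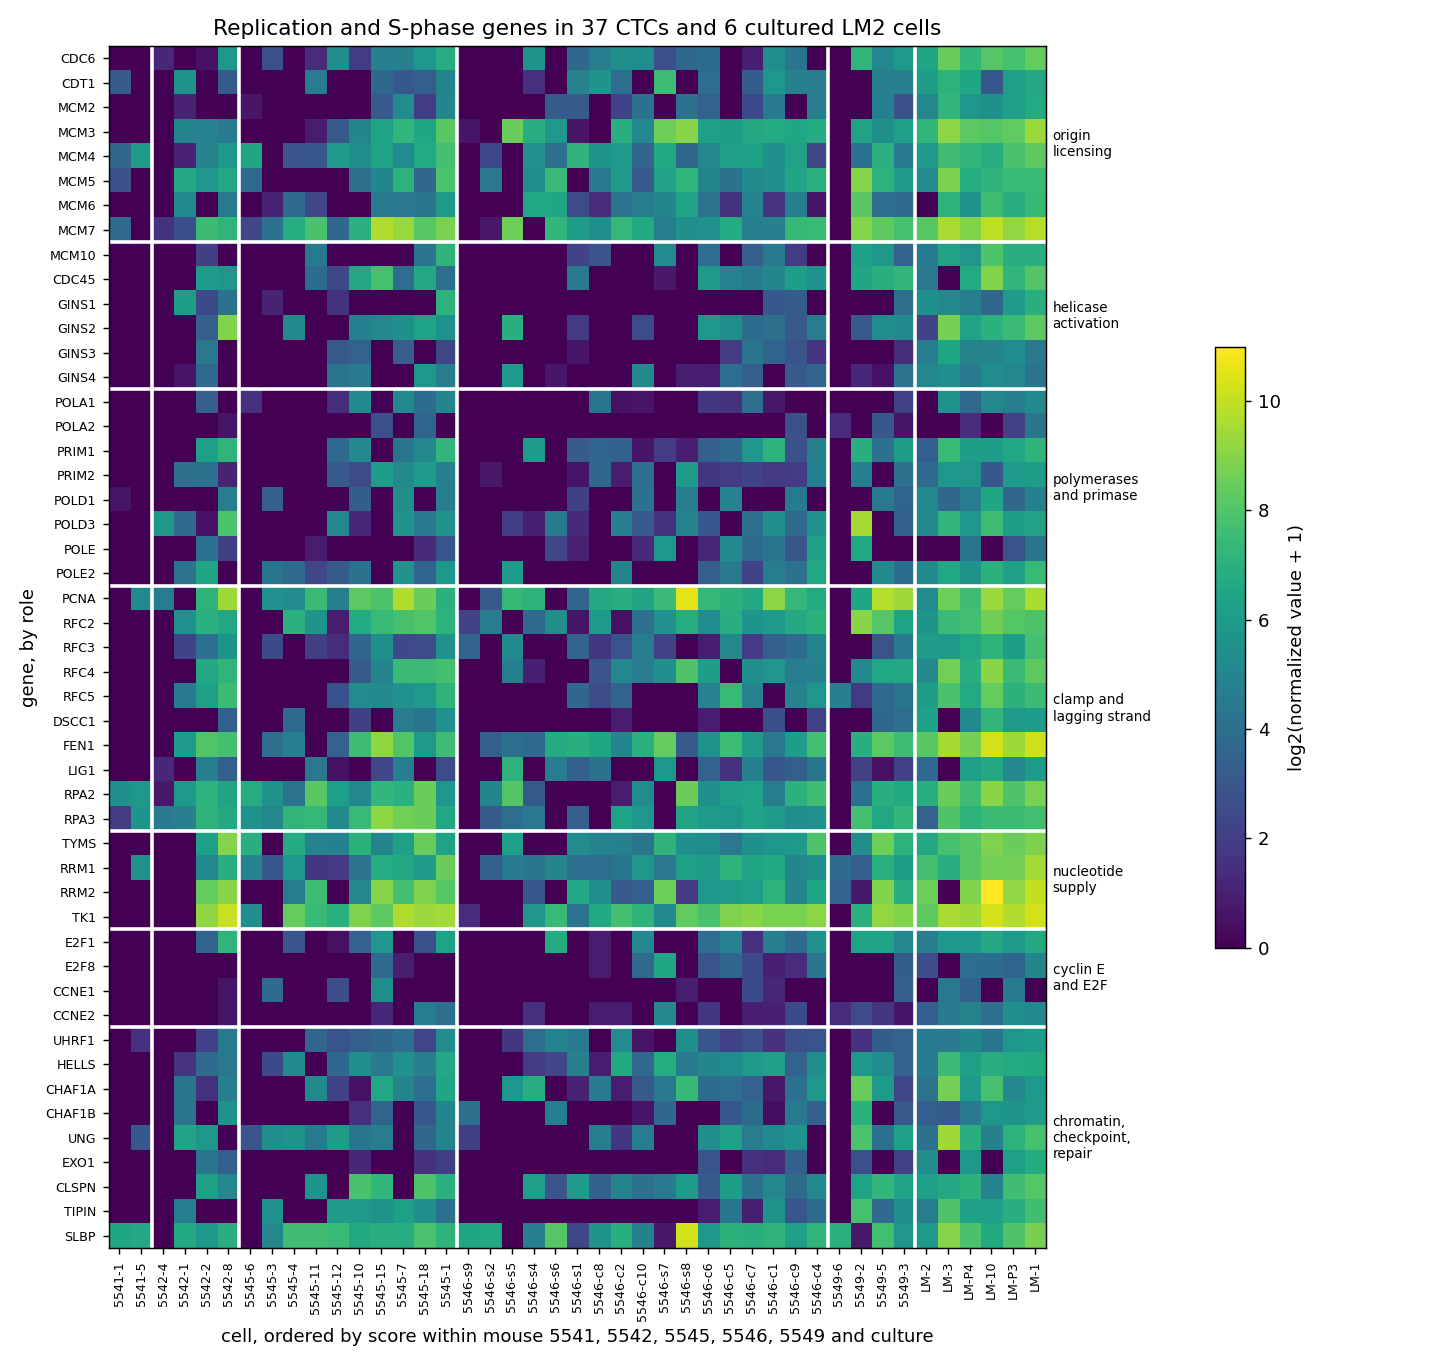
Log2(normalized count + 1) of the 49 genes (rows, grouped by role) in 37 CTCs and 6 cultured cells (columns, ordered by score within each mouse and within the culture; white lines part mice and roles). Mouse 5541 is at 0 for 37 genes while MCM4, RPA2, RPA3 and SLBP are seen in both of its cells, and cultured cells are filled in most rows, with 41 to 49 genes detected.

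Per kilobase of exon, which allows levels to be compared between genes, TK1 (460), FEN1 (345) and PCNA (283) were the 3 most abundant in culture. In the mean of mouse means PCNA (152) and TK1 (140) were highest, followed by SLBP (57.5) and FEN1 (46.0). The level of PCNA exceeded that of FEN1 in CTCs, and in culture the order of the means was the opposite. POLA2, POLE and POLA1 were the lowest per kilobase in culture, at 0.320, 0.561 and 1.67.

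Fewer replication genes were detected per cell in CTCs, and so were fewer genes in all. The mean number of all genes detected was 7761 over the 37 CTCs and 10271 over the 6 cultured cells. The median replication gene was detected in 62.2% of CTCs, against 67.6% for the median of all compared genes. Cultured cells had 41 to 49 of the 49 genes with at least 1 read, and CTCs had 6 to 48, with a mean over mouse means of 25.7 ± 10.1 (SD, n = 5). No replication gene was detected in every CTC, and 38 were detected in every cultured cell. These counts rest on 37 and 6 cells, and the share of all genes was not computed for them. With each cell thinned to 469614 reads, the reads of the shallowest cell, the means were 24.1 in CTCs and 46.0 in culture. A gap divided the CTCs, since 7 of them had at most 11 of the genes and the next had 17.

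These 7 CTCs came from 5 mice, and their values are given singly. CTC 5549-6 had 6 of the genes, CTCs 5542-4 and 5546-s9 had 7, CTCs 5541-1 and 5541-5 had 8, and CTCs 5546-s2 and 5545-6 had 11. Few genes in all were detected in CTC 5545-6, 2313, but CTC 5541-1 had 8253 genes, within the range of the culture, from 1381851 reads, above that range. Its reads on the 49 genes lay on SLBP, RPA2, MCM7, MCM4, CDT1, MCM5, RPA3 and POLD1. The share of reads in replication genes was 0.0221% in CTC 5541-1, and the lowest share in culture was 0.264%. CTC 5541-5 held SLBP at 98.4, MCM4 at 63.4, RPA2 at 56.8, RPA3 at 50.1, RRM1 at 45.9 and PCNA at 36.8. In CTC 5545-6 the genes read were led by TYMS at 122, RPA2 at 111 and MCM4 at 88.6, and SLBP was at 0. The erythroid sum, with a median of 986 over all CTCs, was 12522 in CTC 5549-6, the highest of all, 2844 in CTC 5546-s9, 2079 in CTC 5542-4 and 1159 in CTC 5546-s2. It was 164 in CTC 5541-1, 1.81 in CTC 5541-5 and 0.587 in CTC 5545-6, and the leukocyte sum of the 7 ran from 0.604 to 574. CTCs 5546-s9 and 5549-6 also had the lowest sums of the mesenchymal markers of all CTCs, 5169 and 5522. The part of these transcripts in the low detection was not tested.

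CTC 5549-2 stood at the other end for many genes, and it had the highest CTC value of 10 of the 49. These were CDC6, MCM5, MCM6, POLD3, POLE, RFC2, CHAF1A, CHAF1B, UNG and TIPIN. In the same cell RRM2 and SLBP were at 0.670 each, and its G2 and mitosis score was 2.56. Its median correlation with the other CTCs was low (ρ = 0.38), and its mitochondrial share was 12.0%. Without CTC 5549-2, 34 replication genes met the rule of size in place of 30, and 25.9% of all genes in place of 25.1%.

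In mouse 5546 the libraries whose names carry c and s, letters that the labels do not explain, differed in level. The 9 c libraries had scores of 2.35 to 4.21 with a median of 3.76, and the 8 s libraries had 0.42 to 3.21 with a median of 2.05. The c libraries had 7782 to 12299 genes detected and the s libraries 4656 to 7538, and after the mean of all compared genes was subtracted the difference in mean score went from 1.56 to 0.29. The share of reads in replication genes was 0.0929 to 0.420% in c and 0.0262 to 0.555% in s libraries. Without the s libraries 30 replication genes met the rule of size, the same number as with them, and 24.2% of all genes in place of 25.1%.

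The 49 genes varied together among CTCs. Over the 37 CTCs the median Spearman's ρ was 0.35 over pairs of replication genes and 0.10 over pairs of all compared genes, and 97.5% of the pairs of replication genes were above 0. These CTCs share mice, depth and the number of genes detected, so the values are descriptions. Within mouse 5545 (10 CTCs) the medians were 0.43 and 0.16, within the 9 c libraries 0.16 and 0.08, and within the 8 s libraries 0.17 and 0.05. RFC2 with TK1 (ρ = 0.81) and PCNA with RFC4 (ρ = 0.80) were the closest pairs. Set against the mean of the other 48 genes, TK1 (ρ = 0.86), CDC45 (ρ = 0.83) and RFC2 (ρ = 0.81) followed the group most closely, and SLBP and CCNE1 (ρ = 0.26 each) least.

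The replication score also varied among CTCs together with the mean of 30 G2 and mitosis genes, such as CDK1, AURKB and PLK1 (ρ = 0.76 over 37 CTCs, 0.83 in mouse 5545, 0.50 in c and 0.48 in s libraries). With genes detected ρ was 0.49 over 37 CTCs, 0.68 in mouse 5545, 0.73 in mouse 5546, 0.47 in c and 0.21 in s libraries. With reads it was 0.29 over 37 CTCs and 0.60 in c libraries, above the 0.50 found there with the G2 and mitosis genes. After the mean of all compared genes was subtracted, ρ over 37 CTCs was 0.58 with the G2 and mitosis genes, 0.10 with genes detected and 0.13 with reads. With the erythroid, neutrophil and leukocyte sums ρ was -0.16, -0.19 and -0.16, and with the platelet sum and the mitochondrial share it was 0.26 and -0.15. Within mouse 5545 ρ with the leukocyte sum was 0.61 and within mouse 5546 it was -0.30. For the mesenchymal markers AXL and VIM ρ was 0.33 and -0.07.

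Some cells held replication genes with few G2 and mitosis transcripts. Cultured cell LM-3 had a replication score of 6.01 and a G2 and mitosis score of 1.53, with MCM7 at 777, UNG at 696, MCM3 at 547 and MCM5 at 450 and with RRM2, CDC45, EXO1 and E2F8 at 0. The other 5 cultured cells had G2 and mitosis scores of 6.79 to 8.99. CTC 5546-s8 had scores of 3.21 and 0.93, with PCNA at 1490, SLBP at 1229 and MCM3 at 507, of which PCNA and SLBP were the highest of all 43 cells. The opposite was seen in CTC 5546-s1, with 2.24 and 5.00, and in CTC 5545-11, with 2.35 and 4.78. CTC 5542-1 had licensing genes at a mean of 3.41 and all 4 genes of nucleotide supply at 0.

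**Figure D4:**
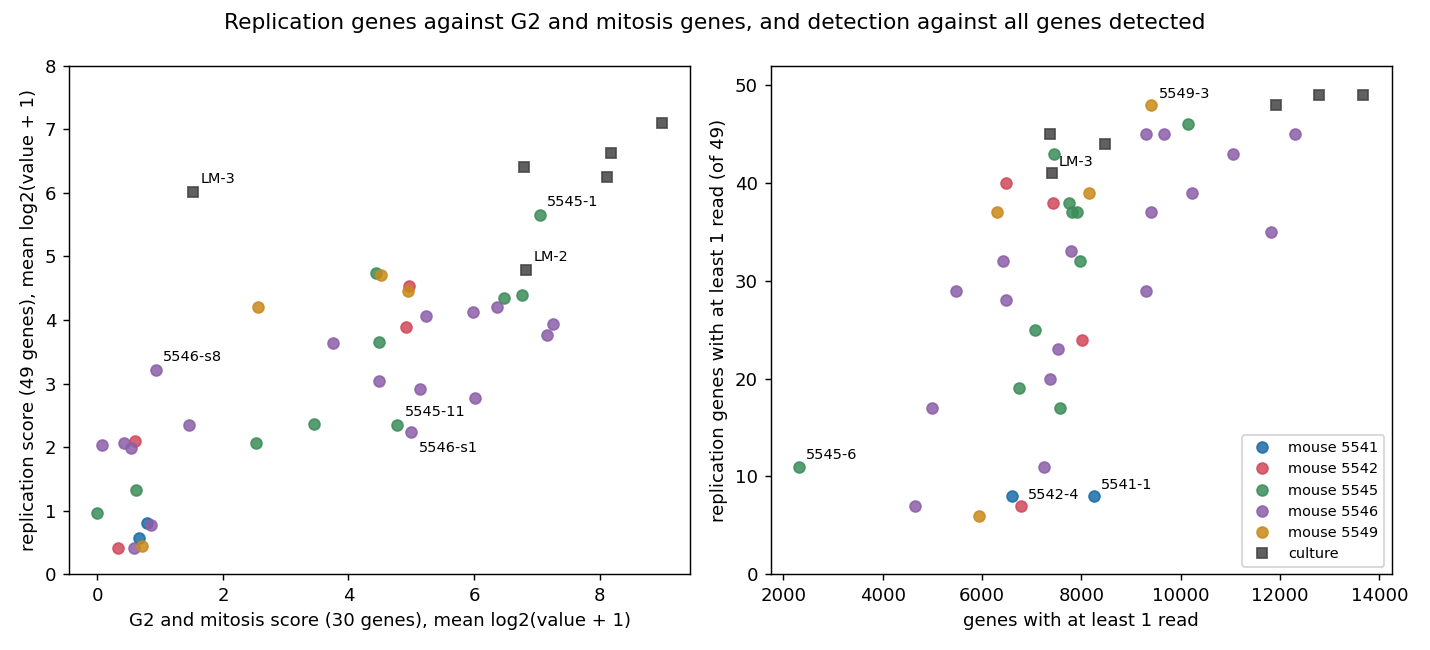
Left, replication score against the score of 30 G2 and mitosis genes, both as mean log2(normalized count + 1), in each CTC (circles, colored by mouse) and cultured cell (squares). Right, number of the 49 genes detected against all genes detected; LM-3 and CTC 5546-s8 lie above the trend on the left, and CTC 5541-1 has 8 of the 49 genes among 8253 genes on the right.

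Among 9693 genes detected in at least 30% of CTCs, the 10 outside the list that were most like the replication score over the 37 CTCs were UBE2C and CDK1 (ρ = 0.86 each), ASF1B, AURKB and MAD2L1 (0.83 each), UBE2T (0.80), TCOF1 and ZWINT (0.79 each), PCLAF (0.78) and KIF2C (0.77). UBE2C, CDK1, AURKB, MAD2L1, ZWINT and KIF2C act in mitosis, ASF1B is a histone chaperone and PCLAF binds PCNA. The median ρ over all 9693 genes was 0.14. Of the 9693 genes, the 100 most like the score included 15 of 29 G2 and mitosis genes and 4 of 33 further replication genes. They also included 19 of the 45 genes of the score that passed the same filter, which hold a part of it.

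Of 37 further genes of replication outside the list, 35 reached the level of the rule, and 16 met it as lower and 0 as higher, against 25.1% and 0.262% of all genes. Their median log2 ratio was -2.42, against -1.56 over all genes. The 5 of those 16 with the highest mean over all 43 cells were POLE3 (107 ± 60.9, SD, n = 5, against 443 in culture), ASF1B (60.1 ± 41.7 against 306), NASP (58.2 ± 43.3 against 375), GMNN (57.6 ± 40.4 against 281) and MCMBP (30.5 ± 24.2 against 211). GMNN is the inhibitor of CDT1, and MCMBP binds the MCM proteins. Among 21 regulators of G1 phase, E2F5 and TFDP1 of the 17 that could be compared met the rule, a smaller share than that of all genes. The median log2 ratio was -1.77, near that of all genes. CDKN1A, an inhibitor of cyclin-dependent kinases chosen here after its values were seen, had 190 ± 87.6 (SD, n = 5) against 210, with a culture median of 123. The inhibitors CDKN1B (3.44 against 12.1), CDKN2C (16.5 against 72.8) and CDKN2D (60.4 against 129) were below the culture in 5 of 5 mice, as were 60.3% of all genes. CDKN1C (4.31 against 2.67) was too low to be compared. Of the 30 G2 and mitosis genes 25 met the rule as lower, with a median of -3.46, both against the same values of all genes. The 5 of those 25 with the highest mean over all cells were CCNB1 (175 against 1228), CDK1 (121 against 852), CDC20 (103 against 676), AURKB (99.1 against 492) and TPX2 (105 against 437). MKI67, CCNB2, KIF11, BIRC5 and UBE2C did not meet the rule, and UBE2C had the highest mean over all cells of the 30 (804 against 1550).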

How the data were processed

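Single cells were sequenced with SMARTseq2, which has no molecular identifiers. The authors mapped reads with STAR 2.7.10a to GRCh38 (GENCODE 38), counted uniquely mapped reads per gene without strand, and deposited counts divided by DESeq2 1.42.1 size factors, a normalized signal per gene and cell. They excluded 4 CTC libraries, which have no column. The table has 43 columns used here and 0 of other samples. Whole reads were recovered from these values (100% of nonzero values whole within 0.001). Gene names came from GENCODE 44 for 25684 of 25739 identifiers.

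The number before the hyphen in a CTC name was read as the mouse. A gene was compared by the rule of size given in the report. Recovered reads were summed per mouse and for the culture and tested with edgeR 4.0.16 (quasi-likelihood, Benjamini-Hochberg threshold 0.05, mean CPM of at least 1). DESeq2 1.42.0 was an alternative on the same sums. As another, limma 3.58.1 was run on log2(mean normalized count + 1) per mouse and in the culture. All were run in R 4.3.3. The edgeR code was tested on simulated data. Other alternatives were pseudocounts of 0.1 and 8, a 4-fold limit, no minimum, CPM, medians, thinning and leaving out mice or cells. Values in full are given for the 2 genes with the highest mean in each role, the 5 lowest and 5 highest log2 ratios, the 10 other genes most like the score, up to 5 genes per other list that met the rule, and the 4 promoters with the highest mean. The members and lists were chosen with earlier results of these data known. Copies made by PCR cannot be told from separate molecules. The p-values rest on the spread between mice, since the culture is 1 sample and its own spread is unknown.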

Additional observations from a re-analysis of the deposited data

Results flagged for a closer look

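In 20 of 85 groups of 4 to 10 values examined, the lowest or highest value lay far from the others. Chance is taken to give this in about 1 in 20 groups. That rate was not tested for single-cell counts with many values at 0, and these groups share cells and genes. The 20 groups are therefore a list and not a count above chance. All gene values in this paragraph are log2(normalized count + 1). Mouse 5541 was distant among the 5 mouse means, with a replication score of 0.69 (next 2.73), 8.00 genes detected (next 27.25), FEN1 at 0.00 (next 5.05) and RRM2 at 0.00 (next 4.03). CTC 5549-6 was distant among the 4 CTCs of mouse 5549, with a score of 0.45 (next 4.20) and a score minus the mean of all compared genes of -2.04 (next 1.27). In the same cell MCM7 (next 7.81), MCM3 (next 5.47), CDC45 (next 6.51), FEN1 (next 6.90) and CLSPN (next 6.35) were at 0.00. CTC 5542-4 had MCM3 (next 4.50) and SLBP (next 5.87) at 0.00, and CCNE2 was detected in mouse 5542 in CTC 5542-8 alone, at 0.62 against 0.00. In mouse 5545, CTC 5545-6 had PCNA (next 4.69) and SLBP (next 5.09) at 0.00, and CTC 5545-3 had TK1 at 0.00 (next 5.37). Among cultured cells, LM-2 was low for GINS2 at 2.25 (next 6.41) and PRIM1 at 3.29 (next 6.13), and LM-3 had RRM2 at 0.00 (next 8.56).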

How the results depend on the processing

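The median log2 ratio of the replication genes was below that of all genes in every setting tried, but how many genes met the rule of size depended on the scale. Of 30 genes, 9 met a 4-fold limit (5.31% of all genes), 10 met the rule on CPM values (7.92%) and 11 after thinning (8.90% of all genes). Leaving out 1 mouse or 1 cultured cell gave 26 to 37 replication genes and 21.6 to 30.1% of all genes. No setting gave a replication gene as higher. The gap between the medians of the replication genes and of all genes, -1.49, was -0.69 without mouse 5541 and -2.79 with no minimum mean, where the genes compared differ. The difference in score between CTCs and culture, -3.63, was -5.05 with a pseudocount of 0.1, -2.26 with 8 and -1.75 after the mean of all compared genes of the cell was subtracted, and ranged from -3.91 to -3.16 with 1 mouse or 1 cultured cell left out. The difference between c and s libraries, 1.56, was 2.73 and 0.68 with the same pseudocounts and 0.29 after the subtraction. The median correlation between genes, 0.35, ranged from 0.32 to 0.44 with 1 mouse left out. No replication gene was called in any of the 17 settings of the test, though other genes were called in some of them. Of these settings, limma used mean normalized counts in place of summed reads. The causes of these changes were not tested. The subtraction of the mean of all genes, the share of reads, and leaving out CTC 5549-2 or the s libraries were chosen after seeing the data. No paired analysis was possible because the numbers in the names only number the cells picked within a mouse or from the culture. With the cultured cells taken as 1 sample, the spread between cultures is unknown, and with 2 CTCs the mean of mouse 5541 rests on few cells.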
